A study of Mus musculus with 16 samples.

Results

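The 10 genes described here encode enzymes that turn squalene into cholesterol: Sqle, Lss, Cyp51, Tm7sf2, Msmo1, Nsdhl, Hsd17b7, Ebp, Sc5d and Dhcr7. They were chosen by name for their place in the pathway and not by their values, although results of these data were already known when the list was drawn up. All 10 were among the 16593 gene symbols on the array, and all 10 were among the 7790 genes whose mean signal passed the filter on dim rows. Each gene was read by its brightest row in the authors' deposited log2 values. Sqle had 2 rows and Nsdhl had 4, each set with identical values on every array, and the other 8 genes had 1 row.

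Total liver RNA came from 16 male C57BL/6 mice, 1 array for each mouse, in 4 groups of 4. The Tg-labelled groups were CYP7A1 transgenic mice on a Western diet and CYP7A1 transgenic mice on chow, and the WT-labelled groups were their wild-type littermates on the same diets. Mice were 12 to 14 weeks old at the start, were kept 1 to a cage, ate their diet for 4 months and were fasted for about 16 h before the liver was taken. The age label of all 16 is 6 months. Fat made up 42% of the calories of the Western diet, which also held 0.2% cholesterol. The sources used here give neither the promoter that drives the transgene nor the cells that carry it, nor the number of founder lines.

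Cells make cholesterol from acetyl-CoA through mevalonate and squalene. Squalene epoxidase and lanosterol synthase close the chain into lanosterol, the first sterol. The enzymes that follow remove methyl groups at carbons of the sterol nucleus and move or reduce its double bonds until cholesterol is left. In the liver the genes of the pathway are known targets of SREBP-2, a transcription factor that is held in the endoplasmic reticulum while sterols are plentiful. CYP7A1 opens the conversion of cholesterol to bile acids. The 4 groups allow the effect of the genotype label to be compared on 2 diets, and the effect of the diet in 2 genotypes.

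The signal of the array's Cyp7a1 row was lower in Tg-labelled than in WT-labelled livers on both diets. On the Western diet Cyp7a1 averaged 6.56 ± 0.53 in Tg-labelled livers and 11.19 ± 1.03 in WT-labelled livers (log2 signal, SD, n = 4 each). On chow the means were 7.04 ± 0.64 in Tg-labelled livers and 11.68 ± 0.42 in WT-labelled livers. The difference of Tg-labelled from WT-labelled livers was -4.63 on the log2 scale on the Western diet (adjusted p = 1e-06) and -4.64 on chow (adjusted p = 1.63e-06). The sources used here do not say whether the array's row reads the transgene's transcript, and the directions below rest on the labels alone. The mean raw signal of the arrays ran from 348.1 to 446.6, and within-group Spearman correlations over all rows were 0.931 to 0.953, against 0.918 to 0.942 between groups.

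Of the hepatocyte markers, 5 of 6 lay above the filter line in every group and Tat lay below it. Their summed linear signal ran from 64000 to 68600 in Tg-labelled livers on the Western diet, 61000 to 65100 in WT-labelled livers on that diet, 62800 to 68900 in Tg-labelled livers on chow and 62100 to 66600 in WT-labelled livers on chow. In whole liver RNA, fewer cells of a type and less RNA per cell cannot be told apart. Markers of fat, pancreatic acinar and muscle cells all lay below the line by their mean over the arrays. Macrophage and stellate cell markers moved with some comparisons, and their values stand beside those below.

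Promoters of the 10 genes were looked up because the genes moved together in several comparisons. RefSeq's promoter table (GRCm38.p6) matched 9 of the 10 genes by symbol, without Sqle, with 11 promoters in all, 3 of them for Dhcr7. The windows searched were the 250 bases before each start, on both strands. The CCAAT box, the letters CCAAT, is the site of NF-Y, a factor known to act beside SREBP, and all 9 genes held it, against 33.8% of the 32851 promoters in the table. In Dhcr7 it stood in 1 of the 3 promoters. The GC box GGGCGG, known as a site of Sp1, was also in all 9, though not in every Dhcr7 promoter, against 32.7% of all promoters. A gene was counted if any of its promoters held the letters, whereas the shares are of single promoters. The E-box CANNTG was in 5 of 9 (Lss, Msmo1, Hsd17b7, Sc5d and Dhcr7), against 66.2% of all promoters. The sterol regulatory element, searched as TCACNCCAC, was in 0 of 9 of these windows and in 1.1% of all promoters. With 9 genes, 0 cannot be told apart from so low a share. Elements spelled otherwise or outside the windows were not searched, so their absence is not shown. No 2 sites of different motifs overlapped in the 11 promoters, and a match of letters is no measured binding site. The 180 bases before the start are printed for 5 genes chosen to show different responses: Msmo1 and Hsd17b7, with large genotype differences on both diets and falls with the Western diet in WT-labelled livers, Tm7sf2, with a small genotype difference on chow and a large one on the Western diet, and Ebp and Sc5d, with the smallest genotype differences on the Western diet. They run 5′ to 3′ on the gene's strand, with CCAAT boxes in capitals (CCAAT, or ATTGG where the box is on the other strand).
Msmo1, chr8:64733579-64733758, minus strand: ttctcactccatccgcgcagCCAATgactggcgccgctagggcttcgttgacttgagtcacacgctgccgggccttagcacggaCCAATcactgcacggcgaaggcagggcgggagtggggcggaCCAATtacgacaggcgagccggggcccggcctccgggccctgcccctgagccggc
Hsd17b7, chr1:169969206-169969385, minus strand: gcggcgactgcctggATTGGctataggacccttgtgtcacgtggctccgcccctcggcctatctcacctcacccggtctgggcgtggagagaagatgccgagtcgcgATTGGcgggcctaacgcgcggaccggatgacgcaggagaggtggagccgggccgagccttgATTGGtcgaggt
Tm7sf2, chr19:6067851-6068030, minus strand: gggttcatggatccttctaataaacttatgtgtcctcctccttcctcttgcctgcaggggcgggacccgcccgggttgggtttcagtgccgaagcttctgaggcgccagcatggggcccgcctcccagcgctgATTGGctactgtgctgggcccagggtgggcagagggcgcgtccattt
Sc5d, chr9:42264301-42264480, minus strand: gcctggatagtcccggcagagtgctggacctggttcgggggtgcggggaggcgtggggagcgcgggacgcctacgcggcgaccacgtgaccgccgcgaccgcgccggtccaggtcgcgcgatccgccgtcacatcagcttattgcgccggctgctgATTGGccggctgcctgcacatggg
Ebp, chrX:8193513-8193692, minus strand: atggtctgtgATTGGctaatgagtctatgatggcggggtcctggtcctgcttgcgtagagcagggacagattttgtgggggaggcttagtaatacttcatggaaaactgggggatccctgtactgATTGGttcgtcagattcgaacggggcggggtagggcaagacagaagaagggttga
The boxes number 3 in the Msmo1 stretch, 3 in Hsd17b7, 1 in Tm7sf2, 1 in Sc5d and 2 in Ebp. The annotated Hsd17b7 gene reaches 169969242, past the lower end of its stretch. The Hsd17b7 box nearest the start therefore lies inside the annotated gene. Whether the number of boxes goes with the size of the genotype difference was not tested.

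Squalene epoxidase (Sqle), which adds oxygen to squalene and is a rate-limiting enzyme of the pathway, showed the largest genotype difference of the 10. On the Western diet its log2 signals in replicates 1 to 4, the order used throughout, were 11.17, 11.13, 10.94 and 11.35 in Tg-labelled livers, against 6.23, 6.13, 6.36 and 6.20 in WT-labelled livers. On chow they were 10.44, 10.95, 10.71 and 10.55 in Tg-labelled livers, against 7.34, 7.83, 6.87 and 6.97 in WT-labelled livers. The 2 genotypes were far apart on both diets, and the Western-diet WT mean of 6.23 lay under the filter line of 6.246, where folds are only bounds. Tg over WT was 4.92 on the log2 scale on the Western diet (SE 0.16, adjusted p = 2.67e-12), or at least 29.3-fold. On chow it was 3.41 (SE 0.16, 10.6-fold, adjusted p = 1.07e-09).

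Lanosterol synthase (Lss) folds the epoxide into lanosterol. On the Western diet its log2 signals were 10.56, 10.32, 10.40 and 10.43 in Tg-labelled livers, against 6.76, 6.94, 6.77 and 7.19 in WT-labelled livers. The chow values were 9.46, 9.62, 10.10 and 10 in Tg-labelled livers, against 7.55, 7.67, 7.44 and 7.35 in WT-labelled livers. No group overlapped another: Tg on the Western diet was highest and WT on the Western diet lowest. The genotype difference was 11.4-fold on the Western diet (adjusted p = 4.59e-12) and 4.89-fold on chow (log2 2.29, SE 0.13, adjusted p = 4.11e-09). Lss was 1 of 3 members that rose with the Western diet in Tg-labelled livers, by 0.63 on the log2 scale (SE 0.13, adjusted p = 0.00545). In WT-labelled livers it fell by 0.59 (adjusted p = 0.00394).

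**Figure D1:**
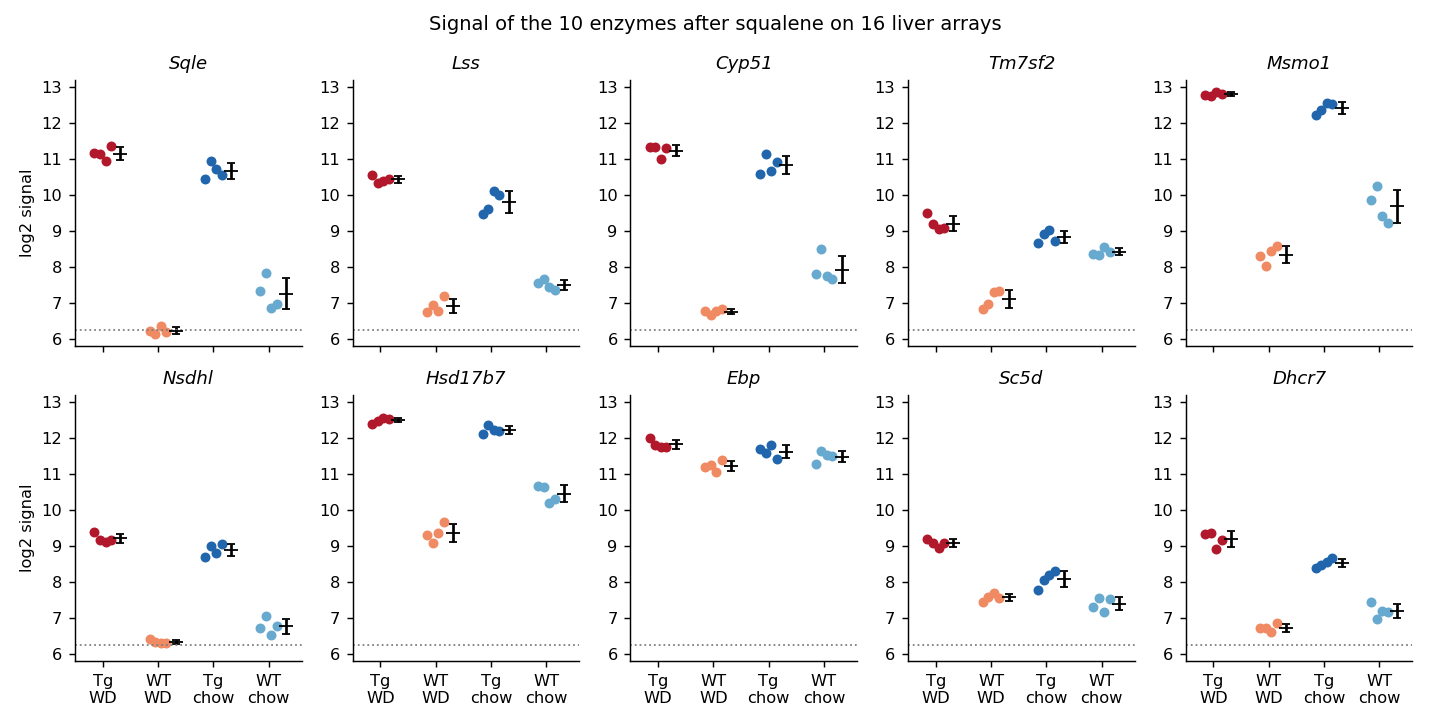
Log2 signal (y axis) of each of the 10 enzymes on each of the 16 arrays, by group (x axis). Points are arrays in replicate order, bars are the group mean ± SD of 4 arrays, and the dotted line is the filter line of 6.246. In 9 of the 10 panels the Tg-labelled points lie above the WT-labelled points on both diets, while the Ebp points overlap on chow.

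Cyp51, the cytochrome P450 that takes the 14-alpha methyl group off lanosterol, followed Sqle in size. Under the Western diet its log2 signals were 11.32, 11.33, 11 and 11.29 in Tg-labelled livers, against 6.77, 6.67, 6.78 and 6.83 in WT-labelled livers. In mice on chow they were 10.59, 11.14, 10.67 and 10.92 in Tg-labelled livers, against 7.81, 8.49, 7.74 and 7.65 in WT-labelled livers. WT-labelled livers on chow spread widest, with replicate 2 above the others, and the 4 WT-labelled livers on the Western diet lay within a narrow band below them. The difference was 22.2-fold on the Western diet (log2 4.47, adjusted p = 2.67e-12) and 7.49-fold on chow (log2 2.90, SE 0.15, adjusted p = 2.92e-09).

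Tm7sf2 encodes a sterol delta14-reductase, which removes the double bond that Cyp51 leaves behind. In mice on the Western diet its log2 signals were 9.50, 9.18, 9.05 and 9.07 in Tg-labelled livers, against 6.82, 6.96, 7.29 and 7.34 in WT-labelled livers. With chow the values were 8.65, 8.90, 9.02 and 8.71 in Tg-labelled livers, against 8.36, 8.33, 8.55 and 8.42 in WT-labelled livers. The chow groups lay next to each other without overlap, and the distance between genotypes opened on the Western diet. The difference was 2.10 on the log2 scale on the Western diet (SE 0.12, 4.28-fold, adjusted p = 3.29e-09). On chow it was 0.41 (SE 0.12, 95% interval 0.14 to 0.67, adjusted p = 0.0476), at the edge of the threshold. That call on chow was lost under 7 of the other settings tried, where the adjusted p reached 0.172, and without 11 of the 16 arrays, each left out in turn. Lbr, the nuclear membrane protein that also has sterol delta14-reductase activity, differed by 0.65 on the Western diet (adjusted p = 0.000214) and by 0.62 on chow (adjusted p = 0.000676), about the same on both diets.

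The 2 methyl groups at carbon 4 are removed by an enzyme group made up of Msmo1, Nsdhl and Hsd17b7, with Erg28 known as its scaffold. Msmo1, the C4-methyl oxidase, had log2 signals on the Western diet of 12.78, 12.76, 12.87 and 12.81 in Tg-labelled livers, against 8.30, 8.03, 8.43 and 8.59 in WT-labelled livers. On chow they were 12.21, 12.36, 12.55 and 12.52 in Tg-labelled livers, against 9.85, 10.25, 9.41 and 9.22 in WT-labelled livers. The 4 Tg-labelled livers on the Western diet were tight (SD 0.05), while the WT-labelled livers on chow spread over an SD of 0.46, and no 2 groups overlapped. The genotype difference was 22.1-fold on the Western diet (log2 4.47, SE 0.17, adjusted p = 5.01e-12) and 6.64-fold on chow (log2 2.73, SE 0.17, adjusted p = 1.43e-08).

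Nsdhl, the dehydrogenase that releases the oxidised carbon, was the member closest to the median pattern of the 10. Its log2 signals on the Western diet were 9.39, 9.17, 9.13 and 9.17 in Tg-labelled livers, against 6.42, 6.35, 6.31 and 6.30 in WT-labelled livers, just above the filter line. The chow values were 8.71, 9.02, 8.81 and 9.07 in Tg-labelled livers, against 6.74, 7.05, 6.52 and 6.78 in WT-labelled livers. The genotypes were separate on both diets, and the WT-labelled groups were close to each other. The difference was 7.32-fold on the Western diet (adjusted p = 4.05e-12) and 4.37-fold on chow (log2 2.13, SE 0.10, adjusted p = 1.07e-09).

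Hsd17b7 reduces the ketone that Nsdhl leaves. On the Western diet its log2 signals were 12.41, 12.48, 12.55 and 12.54 in Tg-labelled livers, against 9.30, 9.08, 9.38 and 9.67 in WT-labelled livers. In mice on chow they were 12.12, 12.37, 12.24 and 12.20 in Tg-labelled livers, against 10.67, 10.65, 10.19 and 10.32 in WT-labelled livers. The Tg-labelled groups lay side by side and the WT-labelled groups stood apart from each other. The difference was 8.80-fold on the Western diet (log2 3.14, adjusted p = 5.01e-12) and 3.42-fold on chow (log2 1.77, SE 0.12, adjusted p = 4.62e-08). Erg28 differed in the same direction, by 1.80 on the log2 scale on the Western diet (adjusted p = 4.26e-11) and by 1.14 on chow (adjusted p = 8.03e-08).

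Ebp, the delta8-delta7 isomerase that shifts the ring double bond, had the smallest genotype difference on either diet. Under the Western diet its log2 signals were 12.01, 11.80, 11.75 and 11.75 in Tg-labelled livers, against 11.21, 11.27, 11.06 and 11.39 in WT-labelled livers. With chow the values were 11.71, 11.59, 11.82 and 11.41 in Tg-labelled livers, against 11.28, 11.64, 11.53 and 11.51 in WT-labelled livers. The genotypes overlapped on chow and separated on the Western diet. The difference was 0.60 on the log2 scale on the Western diet (SE 0.10, 1.51-fold, adjusted p = 0.000656). On chow it was 0.14 with a 95% interval of -0.07 to 0.36 (adjusted p = 0.395), an interval whose upper end lies below the chow estimate of each of the other 9 members. The chow interval of Tm7sf2, 0.14 to 0.67, overlapped that of Ebp.

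Sc5d, the C5-desaturase, was the member whose Western-diet rise in Tg-labelled livers was largest. In mice on the Western diet its log2 signals were 9.21, 9.08, 8.94 and 9.10 in Tg-labelled livers, against 7.46, 7.60, 7.70 and 7.55 in WT-labelled livers. On chow they were 7.79, 8.07, 8.19 and 8.31 in Tg-labelled livers, against 7.31, 7.56, 7.18 and 7.54 in WT-labelled livers. The Tg-labelled livers on the Western diet stood above all others, and the WT-labelled groups overlapped. The genotype difference was 2.84-fold on the Western diet (log2 1.51, SE 0.11, adjusted p = 4.92e-08) and 1.62-fold on chow (log2 0.70, SE 0.11, adjusted p = 0.000676).

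Dhcr7 reduces 7-dehydrocholesterol, the precursor of vitamin D, to cholesterol. Its log2 signals on the Western diet were 9.35, 9.37, 8.92 and 9.18 in Tg-labelled livers, against 6.72, 6.73, 6.62 and 6.87 in WT-labelled livers. The chow values were 8.40, 8.47, 8.57 and 8.68 in Tg-labelled livers, against 7.46, 6.98, 7.19 and 7.17 in WT-labelled livers. All 4 groups were separate. The genotype difference was 5.54-fold on the Western diet (log2 2.47, SE 0.11, adjusted p = 4.26e-11) and 2.52-fold on chow (log2 1.33, SE 0.11, adjusted p = 4.33e-07).

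Counted together on the Western diet, all 10 enzymes were higher in Tg-labelled livers, where 6.77% of all 7790 genes were called higher and 15.1% were called in either direction. The groups of 4 arrays did not overlap for any of the 10, against 11.5% of all genes on the higher side. The median difference of the 10 was 3.00 on the log2 scale (8.03-fold), beside 0.02 for all genes tested. By size of change among all tested genes, Sqle ranked 2, Cyp51 ranked 5, Msmo1 ranked 6 and Lss ranked 7. Of the 10, 6 were within the top 20 and 9 within the top 100. In the same comparison 5 of 7 stellate and matrix markers were lower (summed linear signal 4420 to 5030 in Tg-labelled livers, against 6850 to 7430 in WT-labelled livers). Of the 6 macrophage markers tested, 1 was higher and 1 lower (sums of 3310 to 5130 in Tg-labelled livers, against 6220 to 8390 in WT-labelled livers). Of 5 endothelial markers tested 1 was lower (sums over all 6 of 1080 to 1210 in Tg-labelled livers, against 1400 to 1450 in WT-labelled livers), and 1 of 5 hepatocyte markers was higher. The part of these cell types in the result was not tested.

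On chow 9 of the 10 were higher in Tg-labelled livers, where 4.58% of all genes were called higher and 9.99% in either direction. The exception was Ebp. With the replicate number as a block within each diet 8 were called, Tm7sf2 being lost (0.41, adjusted p = 0.0719), and with a block over both diets 8 were called too (Tm7sf2 adjusted p = 0.0643). The groups did not overlap for the same 9, against 6.17% of all genes. The median of the 10 was 1.95 on the log2 scale (3.87-fold), beside 0 for all genes. Sqle again ranked 2 by size, with Cyp51 at 9, Msmo1 at 11 and Lss at 13, and 5 members were in the top 20 and 7 in the top 100. Macrophage markers were higher for 3 of 6 here (sums of 2740 to 4930 in Tg-labelled livers, against 1260 to 3050 in WT-labelled livers), and 0 of 7 stellate and matrix markers were called by limma. Their part was not tested.

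**Figure D2:**
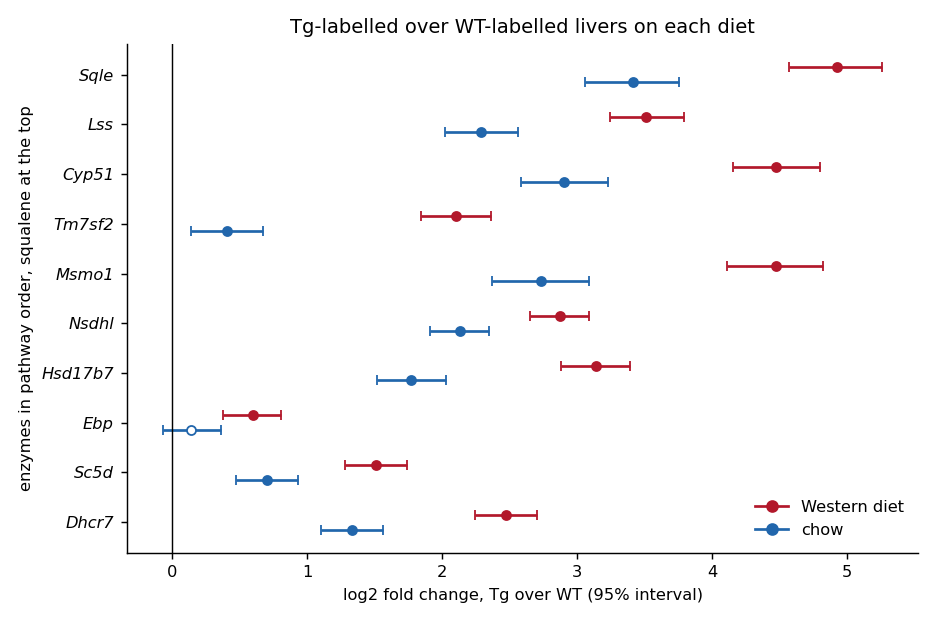
Log2 fold change of Tg-labelled over WT-labelled livers (x axis) for each enzyme (y axis, pathway order from squalene down), on the Western diet and on chow. Points are limma estimates with 95% intervals, filled where the adjusted p was under 0.05. Every point on the Western diet lies right of its chow point, and the Ebp chow point is the only open one, at 0.14.

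The Western diet against chow was next compared within each genotype. In Tg-labelled livers the mean of each of the 10 enzymes was a little higher on the Western diet, and 3 of the 10 enzymes were called higher, where 4.85% of all genes were called higher and 9.81% in either direction. These 3 were Lss, Dhcr7 and Sc5d. Dhcr7 rose by 0.67 on the log2 scale (SE 0.11, 1.59-fold, adjusted p = 0.00128) and Sc5d by 0.99 (SE 0.11, 1.99-fold, adjusted p = 6.13e-05). The median of all 10 was 0.40 (1.32-fold), beside -0.01 for all genes. For 7 of the 10 the groups did not overlap, against 7.84% of all genes on the higher side, and 9 of 10 had an unadjusted p under 0.05 in that direction, against 12.4% of all genes. The largest of the differences that missed the threshold was that of Sqle, at 0.48 with a 95% interval of 0.14 to 0.83 (adjusted p = 0.0718). With only the 8 Tg-labelled arrays in the fit, 5 members were called, Sqle (adjusted p = 0.0308) and Msmo1 (adjusted p = 0.0187) being added, and the count ran from 3 to 6 as each array was left out, with 6 without replicate 2 of WT-labelled livers on chow. No macrophage or stellate marker was called by limma in this comparison (0 of 6 and 0 of 7), and 1 of 5 hepatocyte markers was lower. Its part in the result was not tested.

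In WT-labelled livers the Western diet went with lower signals. Of the 10 enzymes 8 fell, where 9.18% of all genes were called lower and 19.5% in either direction, and the groups did not overlap for the same number of members, against 11.9% of all genes. Msmo1 fell by 1.34 on the log2 scale (SE 0.17, 2.54-fold, adjusted p = 3.63e-05), and Tm7sf2 fell by 1.31 (SE 0.12, 2.49-fold, adjusted p = 2.04e-06). Cyp51 fell by 1.16 (adjusted p = 6.35e-05), Hsd17b7 fell by 1.10 (adjusted p = 9.59e-06) and Sqle fell by 1.02 (SE 0.16, adjusted p = 0.000327), a fold of at least 1.97. Dhcr7 fell by 0.46 (adjusted p = 0.00657) and Nsdhl fell by 0.43 (adjusted p = 0.00776).

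The 2 members not called were Ebp, at -0.26 (95% interval -0.47 to -0.04, adjusted p = 0.0828), and Sc5d, at 0.18 (95% interval -0.05 to 0.41, adjusted p = 0.267). The median of the 10 was -0.81 (1.75-fold), beside -0.04 for all genes. In WT-labelled livers on chow the 5th percentile of raw signal was 62.9 and 61.8 in replicates 1 and 2, against 53.4 and 54.3 in replicates 3 and 4, and the size of the falls differed between these sets of arrays. Msmo1 was at -1.88 in replicates 1 and 2 and at -0.80 in replicates 3 and 4, and Sqle was at -1.40 in replicates 1 and 2 and at -0.64 in replicates 3 and 4. All 10 members kept their sign in both sets of replicates, in this and in each other comparison. Where 2 groups do not overlap, as for 8 of the 10 here, such a split keeps the sign in any case. Macrophage markers were higher for 5 of 6 in this comparison (sums of 6220 to 8390 on the Western diet, against 1260 to 3050 on chow). Stellate and matrix markers were higher for 7 of 7 (sums of 6850 to 7430 on the Western diet, against 3790 to 5950 on chow), as were 3 of 5 endothelial markers, and 2 of 5 hepatocyte markers were lower. The part of these cell types in the falls was not tested.

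**Figure D3:**
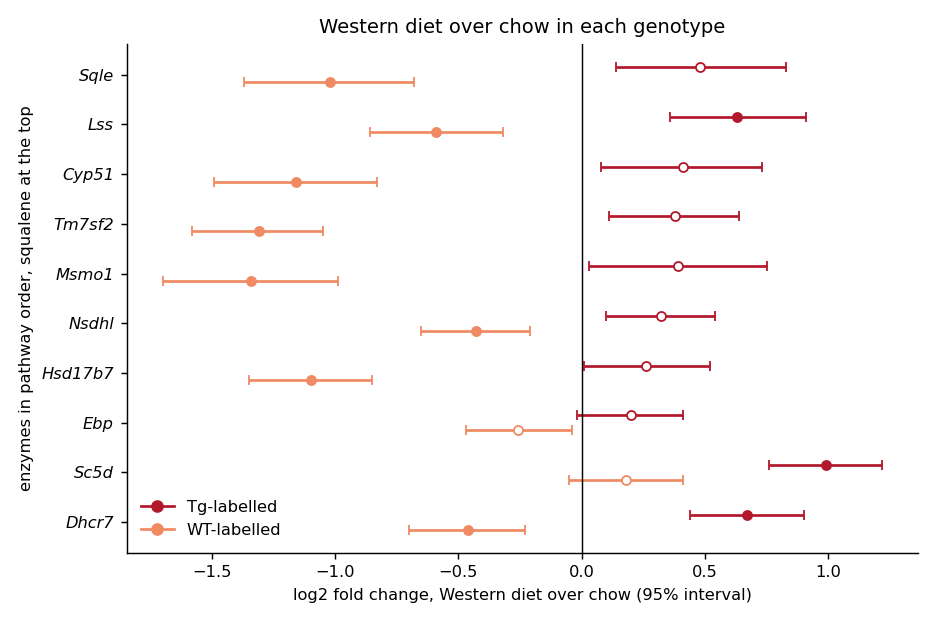
Log2 fold change of the Western diet over chow (x axis) for each enzyme (y axis, pathway order from squalene down), in Tg-labelled and in WT-labelled livers. Points are limma estimates with 95% intervals, filled where the adjusted p was under 0.05. All 10 Tg-labelled points lie right of 0, from 0.20 (Ebp) to 0.99 (Sc5d), and all WT-labelled points but that of Sc5d lie left of it.

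The interaction tests whether the genotype difference was larger on the Western diet than on chow. It was larger for 9 of the 10 enzymes, where 2.16% of all genes were called in that direction and 5.21% in either. Its median was 1.29 on the log2 scale (2.45-fold), beside 0.02 for all genes. The values of Msmo1, at 1.73 (SE 0.24, adjusted p = 0.000612), and Tm7sf2, at 1.69 (SE 0.18, adjusted p = 8.56e-05), were close to each other. Sqle stood at 1.51 (SE 0.23, adjusted p = 0.00139), and at 1.46 or more with its dim WT-labelled arrays on the Western diet set to the filter line. Cyp51 stood at 1.57 (SE 0.22, adjusted p = 0.000639), Hsd17b7 at 1.36 (SE 0.17, adjusted p = 0.000414) and Lss at 1.22 (SE 0.18, adjusted p = 0.00115). Dhcr7 at 1.14 (adjusted p = 0.000612), Sc5d at 0.81 (adjusted p = 0.00639) and Nsdhl at 0.75 (adjusted p = 0.00748) were smaller. The WT-labelled mean of Nsdhl on the Western diet, 6.34, lay just above the filter line. Ebp was not called, at 0.45 (95% interval 0.15 to 0.75, adjusted p = 0.0778). For Sc5d the diet difference was 0.99 in Tg-labelled livers and 0.18 in WT-labelled livers, whereas for Tm7sf2 it was 0.38 in Tg-labelled livers and -1.31 in WT-labelled livers. In replicates 1 and 2 the Msmo1 interaction was 2.36, and in replicates 3 and 4 it was 1.10. In the interaction 3 of 6 macrophage markers were lower (median -1.37), as was 1 of 7 stellate and matrix markers, and 1 of 5 hepatocyte markers was higher. Their part in the result was not tested.

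Single arrays shifted several members at once. Among WT-labelled livers on chow, replicate 2 was the highest of its group for 7 of the 10 enzymes, Sqle (7.83), Cyp51 (8.49) and Msmo1 (10.25) among them. Among Tg-labelled livers on chow, replicate 1 was the lowest for 9 of 10. In WT-labelled livers on the Western diet replicate 4 was the highest for 7 of 10. These shifts were small beside the genotype differences of Sqle, Cyp51 and Msmo1. The whole range of the chow WT-labelled Msmo1 values, 9.22 to 10.25, lay under the lowest Tg-labelled value of 12.21. They were not small beside the weaker differences. The median deviation of the 10 from their group means was -0.20 in that Tg-labelled chow array and 0.18 in that WT-labelled chow array. The median diet difference in Tg-labelled livers was 0.40, and the chow genotype differences of Tm7sf2 and Ebp were 0.41 and 0.14.

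The enzymes before squalene were set beside them through a list of 9 genes, of which 5 were tested: Hmgcs1, which makes HMG-CoA, Pmvk and Mvd, which process mevalonate, Idi1, which isomerises its product, and Fdps, which joins isoprene units. All 5 were higher in Tg-labelled livers on the Western diet (median 3.32 on the log2 scale, from 2.51 for Pmvk to 4.71 for Fdps). All 5 were also higher on chow (median 2.14, from 1.57 for Pmvk to 3.11 for Fdps). With the Western diet in Tg-labelled livers 3 of 5 rose (Pmvk by 0.49, Mvd by 1.00 and Fdps by 0.64), with a median of 0.56. The WT-labelled mean of Mvd on the Western diet, 6.08, was under the filter line, so its difference there is a bound. In WT-labelled livers 2 of 5 fell with the Western diet: Fdps fell by 0.97 (adjusted p = 0.00095) and Pmvk fell by 0.46 (adjusted p = 0.00113), with a median of -0.46. Of all genes, 6.77% were called higher in Tg-labelled livers on the Western diet and 4.58% on chow. With the Western diet 4.85% were called higher in Tg-labelled livers, and 9.18% lower in WT-labelled livers. The other 4 genes of the list were not analysed here.

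Among other genes that act on late sterols or pass electrons to these enzymes, 6 of 9 were tested. On the Western diet 2 of 6, Erg28 and Lbr, were higher in Tg-labelled livers, against 6.77% of all genes. On chow the same 2 were higher, against 4.58% of all genes. Ebpl, a relative of Ebp, was lower there, at -0.51 (adjusted p = 0.00896). Cyb5r3, the reductase of cytochrome b5, was lower too, at -0.65 (adjusted p = 0.0243), where 421 of all 7790 genes were called lower. With the Western diet 4 of 6 rose in Tg-labelled livers (Erg28, Ebpl, Cyb5r3 and Cyb5b), against 4.85% of all genes. In WT-labelled livers 1 of 6 fell (Erg28 fell by 0.38, adjusted p = 0.00297), where 9.18% of all genes were called lower. Cytochrome b5 itself (Cyb5a), an electron donor of the oxidases, was at -0.17 between genotypes on the Western diet (adjusted p = 0.368) and at -0.16 on chow (adjusted p = 0.438).

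Of 17 genes of sterol sensing, uptake and export, 9 were tested. Srebf2, which encodes SREBP-2, was higher in Tg-labelled livers by 1.07 on the Western diet (SE 0.16, adjusted p = 0.000236) and by 0.58 on chow (SE 0.16, adjusted p = 0.0322). Insig1, which holds SREBP in the endoplasmic reticulum, was higher by 1.87 on the Western diet (adjusted p = 3.86e-10) and by 1.22 on chow (adjusted p = 3.07e-07). Stard4, a carrier of sterols in the cytosol, was higher by 2.90 on the Western diet (adjusted p = 1.89e-08) and by 1.40 on chow (adjusted p = 0.000242). In all, 4 of 9 were higher on each diet, the other being Scap on the Western diet, at 0.55, and Insig2 on chow, at 0.78. Of all genes, 6.77% were called higher on the Western diet and 4.58% on chow. With the Western diet in Tg-labelled livers 3 of 9 rose, against 4.85% of all genes: Stard4 and the sterol exporters Abcg5 and Abcg8. In WT-labelled livers 3 of 9 fell (Scap, Insig1 and Stard4) and 2 rose, again Abcg5 and Abcg8. Of all 7790 genes, 9.18% were called lower and 802 higher there.

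**Figure D4:**
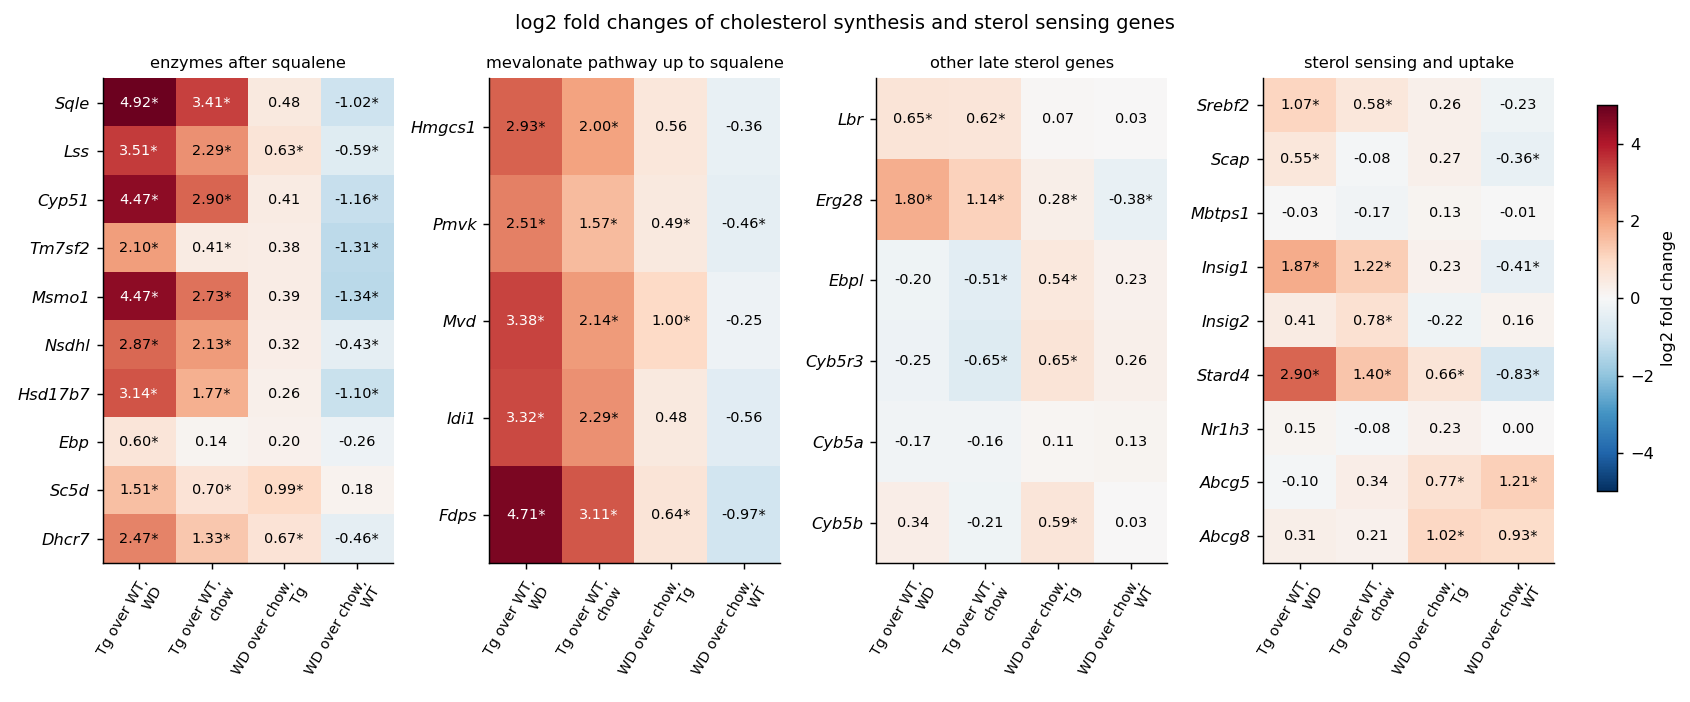
Log2 fold changes (colour and printed value) of the 10 enzymes and of the tested members of the 3 other sterol lists (rows) in the 4 comparisons of groups (columns: Tg-labelled over WT-labelled livers on the Western diet and on chow, then Western diet over chow in Tg-labelled and in WT-labelled livers). An asterisk marks an adjusted p under 0.05. In the first 2 columns the mevalonate enzymes lie between 1.57 and 4.71, while Tm7sf2 (0.41) and Ebp (0.14) are the palest of the 10 enzymes on chow. In the last column Abcg5 (1.21) and Abcg8 (0.93) carry the rises marked by an asterisk.

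Among the tested genes outside the 10, likeness to them was measured over the 4 group means, each centred on the gene's own average, as the root-mean-square distance to the median of the 10. That median pattern was 1.38 in Tg-labelled livers on the Western diet, -1.60 in WT-labelled livers on the Western diet, 1.09 in Tg-labelled livers on chow and -0.88 in WT-labelled livers on chow. The members' own distances ran from 0.11 (Nsdhl) and 0.13 (Hsd17b7) to 0.85 (Sqle) and 1.07 (Ebp). The 10 nearest other genes were Hmgcs1 (0.16), Idi1 (0.18), Stard4 (0.21), Pmvk (0.25), Rdh11 (0.28), Cyp4a12b (0.33), Mvd (0.33), Avpr1a (0.36), Egfr (0.42) and Aldoc (0.44). Of these, 5 belong to the lists above.

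The other 5 nearest genes have other known roles. Rdh11, a retinol dehydrogenase, differed by 2.65 on the log2 scale between genotypes on the Western diet (SE 0.11, adjusted p = 2.26e-11) and by 1.42 on chow (SE 0.11, adjusted p = 3.08e-07). Its level rose by 0.72 with the Western diet in Tg-labelled livers (adjusted p = 0.00104) and fell by 0.52 in WT-labelled livers (adjusted p = 0.00364). Avpr1a, a vasopressin receptor, differed by 2.22 on the Western diet and by 1.30 on chow, and Egfr, the receptor of epidermal growth factor, by 2.17 on the Western diet and by 1.17 on chow. Aldoc, an aldolase of glycolysis, differed by 1.98 on the Western diet and by 1.25 on chow. Cyp4a12b, a fatty acid hydroxylase, differed by 2.19 on the Western diet (SE 0.44, adjusted p = 0.00271) and by 1.49 on chow (SE 0.44, adjusted p = 0.0418), with the widest error of these, and its row may also read related Cyp4a transcripts. All 5 were higher in Tg-labelled livers on both diets. These genes were picked by their likeness in the same arrays, so their direction is no separate evidence.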

How the data were processed

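Liver RNA of 16 mice was labelled with biotin and hybridised to Illumina arrays, per the labels' protocols. The authors deposited scanner signal intensity on a linear scale for 25697 rows, and log2 values of the same arrays whose scaling the sources used here do not describe. Within each array the deposited log2 values kept the order of the scanner signals (0 breaks), and they lay within 0.0675 of quantile-normalized log2 scanner intensity. Their array medians ran from 6.254 to 6.264, so they are log2 values that are not centred per gene. No detection p-values, slides or dates were used here.

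The deposited log2 values were used as the main values. Rows in the upper 50% by mean over 16 arrays were kept (above 6.246). A gene symbol with several rows was read by its brightest row, and 42 symbols that shared values were left out, which left 7790 genes. The platform annotation gave 23978 rows 1 symbol, 0 rows several and 1719 rows none. Of the named rows, 23962 matched the RefSeq table (GRCm38.p6) by Entrez identifier. A group mean under 6.246 gives only a bound on a fold, computed with each array of that group that lay under the line set to 6.246. Probe sequences were not used here.

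Limma 3.58.1 in R 4.3.3 (with data.table, version 1.17.8) fitted 1 mean for each of 4 groups (12 residual degrees of freedom). Tests were two-sided, with Benjamini-Hochberg adjustment over all 7790 genes and calls at an adjusted p under 0.05 and no minimum fold. Errors are limma's SE for changes and SD over 4 arrays for levels, and the number of arrays limits the precision. The procedure was tested on simulated data with independent noise for each gene. Those data held no shifts shared by the genes of an array, so the test does not cover such shifts. Alternatives were the scanner intensity with normexp (offset 50 or 16) and quantile scaling, or with median scaling, no filter or the upper 25%, the mean of distinct rows, limma-trend, a replicate block, a replicate block within each diet (added after the data were seen), a term for replicates 1 and 2 against 3 and 4, only the arrays compared, and each array left out in turn. Replicate numbers come from the sample titles, which do not say that they mark shared litters or batches. Deviations from the group means correlated over 0.1 in 4 of 4 same-numbered pairs of the chow groups (0.13 to 0.24). They did so in 3 of 4 of the Western-diet groups (-0.03 to 0.20), and in 0 of 4 between diets in either genotype. Correlations this small do not show that same-numbered mice belonged together, and the main fit held no pairing. The 10 enzymes, the other lists and the tests were chosen with earlier results of these data known. The genes named are the 10, called members of the lists, Cyp7a1, and the 10 genes of most similar group means.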

Additional observations from a re-analysis of the deposited data

Results flagged for a closer look

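Of the 40 groups of 4 arrays formed by the 10 enzymes, 3 held an array far from the others (Dixon's criterion for 4 values), where chance gives about 1 in 20. All 3 lay in Tg-labelled livers on the Western diet. Cyp51 in replicate 3 was 11, with the next array at 11.29. Nsdhl in replicate 1 was 9.39, with the next at 9.17, and Ebp in replicate 1 was 12.01, with the next at 11.80.

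The genotype difference differed between diets for 9 enzymes by the interaction term of the limma fit, each larger on the Western diet. The log2 values were 1.51 for Sqle (1.46 or more with its dim arrays at the filter line), 1.22 for Lss, 1.57 for Cyp51, 1.69 for Tm7sf2, 1.73 for Msmo1, 0.75 for Nsdhl, 1.36 for Hsd17b7, 0.81 for Sc5d and 1.14 for Dhcr7.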

How the results depend on the processing

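Over the 10 enzymes and 5 comparisons, 508 of 520 values under other settings and 779 of 800 with 1 array left out kept their direction and their side of the threshold, and 0 reversed. Many of these settings, such as the filters, limma-trend and the replicate terms, leave the log2 differences of the 10 enzymes unchanged. A direction could change only with the scanner intensity as input, or without an array of a group compared. All 7 and 11 values that lost the call were the chow genotype difference of Tm7sf2 (0.28 to 0.43 on the log2 scale under the other settings). With median scaling Ebp was called for the diet in WT-labelled livers (-0.38, adjusted p = 0.0318) and for the interaction (0.59, adjusted p = 0.0468). With normexp and an offset of 16 the Western-diet genotype difference grew to 5.70 for Sqle and 3.52 for Nsdhl, both dim in WT-labelled livers. It also grew for Cyp51 (to 4.94), Lss (3.93), Dhcr7 (2.90) and Tm7sf2 (2.40). The growth was smaller for Msmo1 (4.60), Hsd17b7 (3.18) and Sc5d (1.68), and Ebp stayed at 0.60. The order of members also changed there. In the interaction Tm7sf2 was at 1.97, Sqle 1.96, Cyp51 1.86 and Msmo1 1.81, and Nsdhl at 1.00 stood above Sc5d at 0.86. For diet in WT-labelled livers Tm7sf2 was at -1.55, Sqle -1.47, Cyp51 -1.44 and Msmo1 -1.42. Counts of called genes moved by over 1.5 times with the upper 25% of rows, where fewer genes are tested (752 for genotype on the Western diet, 857 for diet in WT-labelled livers, 258 for the interaction). With only the arrays compared, 310 genes were called for genotype on chow and 5 members for diet in Tg-labelled livers; the cause was not tested. With 1 array left out, genes called ran from 909 to 1378 for genotype on the Western diet (10 to 10 members), 409 to 927 on chow (8 to 9 members), 471 to 1032 for diet in Tg-labelled livers (3 to 6), 1033 to 1661 in WT-labelled livers (8 to 9) and 259 to 473 for the interaction (9 to 10). Arrays that moved a count by over 1.5 times were, on chow, WT replicates 1 (509) and 3 (409) and Tg replicate 4 (518). For diet in Tg-labelled livers they were Western-diet replicates 1 (486), 2 (471) and 4 (497). For the interaction they were chow WT replicate 3 (259) and Western-diet WT replicate 2 (264). Median scaling moved the split of genes higher and lower, to 278 and 1089 for genotype on the Western diet (527 and 646 in the deposited values), 171 and 952 on chow (357 and 421), 362 and 220 for diet in Tg-labelled livers (378 and 386) and 887 and 509 in WT-labelled livers (802 and 715).

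Over all groups, 8 of 24 same-numbered pairs of arrays correlated over 0.1, 7 of them within a diet. An array correlated best with its own number in 15 of 48 checks, each a choice among the 4 arrays of another group. With a replicate block within each diet, added after the data were seen, 1387 genes and 10 members were called for genotype on the Western diet, 1100 and 8 on chow, and 522 and 9 for the interaction. With a replicate block 1222 and 770 genes were called for genotype on the Western diet and chow, 821 and 1539 for diet in Tg-labelled and WT-labelled livers, and 408 for the interaction. Members called under the block were 10, 8, 3, 8 and 9 in the same order; apart from Tm7sf2 on chow, neither block changed the call of any of the 10 enzymes.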

Other observations

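Abcg5 and Abcg8, which form the transporter that moves sterols into bile, differed from the synthesis enzymes in being higher on the Western diet in both genotypes. Abcg5 was higher by 0.77 on the log2 scale in Tg-labelled livers (SE 0.17, adjusted p = 0.00854) and by 1.21 in WT-labelled livers (SE 0.17, adjusted p = 9.67e-05). Abcg8 was higher by 1.02 in Tg-labelled livers (adjusted p = 0.0101) and by 0.93 in WT-labelled livers (adjusted p = 0.00948). Between genotypes Abcg5 was at -0.10 on the Western diet (adjusted p = 0.75) and at 0.34 on chow (adjusted p = 0.22).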
